A study of Mus musculus and Homo sapiens
Mus musculus with 14 samples.

Results

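The collapsin response mediator proteins (CRMPs) and the stathmins are 2 families of cytoplasmic phosphoproteins that act on microtubules, and the 9 genes described here are their mouse members Crmp1, Dpysl2, Dpysl3, Dpysl4 and Dpysl5 (the CRMPs) and Stmn1, Stmn2, Stmn3 and Stmn4 (the stathmins). They were taken by gene symbol, and all 9 were present among the 24460 genes listed for the retinal layers and the 18415 listed for the amacrine cells. The families were chosen by a measured value, the level of Dpysl3, which was highest in the outer nuclear layer, so every value of a member in that layer against the other layers is a description here, given with no test.

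The data came from Light-Seq, in which RNA is reverse transcribed in place in a fixed section and DNA barcodes are attached by light to the cDNA of chosen regions. In wild-type (WT) CD1 IGS mice of the third postnatal week, for which the labels name no treatment, 3 layers were barcoded in each of 4 sections of the same animal. These were the outer nuclear layer (ONL), which holds the rods and cones, the bipolar cell layer (BCL), where Müller glia and horizontal cells lie beside the bipolar cells, and the ganglion cell layer (GCL), which ganglion cells share with displaced amacrine cells. In 5 further sections, amacrine cells stained for tyrosine hydroxylase (TH+) and amacrine cells without the stain (TH−) were barcoded separately. The sections of a group are technical replicates or are not stated to come from separate animals, so every p-value measures the spread between sections only.

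CRMPs bind tubulin dimers and promote the growth of microtubules in axons, and they were first described as mediators of the growth cone collapse caused by semaphorin 3A. Kinases such as CDK5 and GSK3 phosphorylate them and so weaken their hold on tubulin. Stathmins do the opposite to microtubules: they sequester tubulin dimers and favour disassembly, and phosphorylation releases the tubulin. In the retina, both families are best known from neurons with long axons, the ganglion cells, and from the growth and regeneration of those axons.

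The depth was 310228 to 801105 unique molecular identifiers (UMIs, one per captured cDNA molecule) in the ONL libraries, 193869 to 208437 in the BCL, 585655 to 785013 in the GCL, 30317 to 87449 in TH+ cells and 134394 to 200344 in TH− cells. Rod markers held 5.07% ± 0.386 (SD, n = 4) of the UMIs of the ONL, bipolar markers 0.657% ± 0.0368 of those of the BCL and ganglion cell markers 0.718% ± 0.0385 of those of the GCL, each the highest of the 3 layers. Th and its partners in dopamine synthesis and transport held 0.0853% ± 0.0231 (n = 5) in TH+ cells and 0.00439% ± 0.00285 in TH− cells, and amacrine markers held 0.339% ± 0.0591 and 0.411% ± 0.0811. Beside them, Müller glia markers held 0.375% ± 0.0599 in TH+ and 0.557% ± 0.102 in TH− cells, and 0.756% ± 0.0363 in the BCL. Levels are given as CPM, the UMIs of a gene scaled to a common library total, unless they are stated per kilobase, and fewer cells of a type in a region and less RNA per cell cannot be told apart in such libraries.

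Stmn1 (chr4:134195021-134201882, GRCm39, plus strand) was all but uncounted, and its sequence is shown first because it bears on what a count of this gene can mean. The cDNA reads were at most 40 bases long and reads with several matches in the genome were discarded by the authors. Of the 408 windows of 40 bases that lie within the coding part of the spliced Stmn1 transcript, 374 (91.7%) also occur elsewhere in the mouse genome, and 368 of them have a copy in Gm11223, a processed pseudogene annotated at chr4:69843867-69844316. Exons 3 and 4 of Stmn1, and exon 4 of its paralog Stmn2 for comparison, follow in 5′ to 3′ order (GRCm39 sequence, plus strand, exons of the GENCODE canonical transcripts). Capitals mark the bases that lie in at least 1 window of 40 bases found nowhere else in the genome, judged by exact matches to the genome. The aligner's own handling of mismatches and splicing was not rerun, so a read from such a window may still have been discarded.

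Stmn1 exon 3, chr4:134197978-134198150: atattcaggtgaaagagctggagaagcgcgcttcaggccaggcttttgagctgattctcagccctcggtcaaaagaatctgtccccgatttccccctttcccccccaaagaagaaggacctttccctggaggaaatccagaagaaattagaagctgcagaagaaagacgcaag
Stmn1 exon 4, chr4:134200115-134200306: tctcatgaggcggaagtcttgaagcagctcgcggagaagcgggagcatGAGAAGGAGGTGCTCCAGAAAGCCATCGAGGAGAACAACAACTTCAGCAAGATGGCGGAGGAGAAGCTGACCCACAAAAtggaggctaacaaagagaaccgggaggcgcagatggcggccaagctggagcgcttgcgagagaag
Stmn2 exon 4, chr3:8619852-8620043: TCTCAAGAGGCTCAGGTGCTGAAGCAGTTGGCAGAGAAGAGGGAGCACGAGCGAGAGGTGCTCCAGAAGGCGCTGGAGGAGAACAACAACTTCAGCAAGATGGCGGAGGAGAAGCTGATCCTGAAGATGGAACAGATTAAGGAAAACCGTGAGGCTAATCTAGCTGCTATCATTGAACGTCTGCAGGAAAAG

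Exon 3 of Stmn1 has 173 bases, of which 0 lie in such a window, and exon 4 has 79 of 192. Exon 4 of Stmn2 is 75.0% identical to that of Stmn1 over 192 aligned bases without a gap, yet all 192 of its bases lie in windows of their own. Over the whole spliced transcripts, 900 of 1749 windows of Stmn1 (51.5%) and 4 of 2100 of Stmn2 (0.190%) occur elsewhere, and the other members have 0 such coding windows. The plot of windows along both transcripts shows where they lie.

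**Figure D1:**
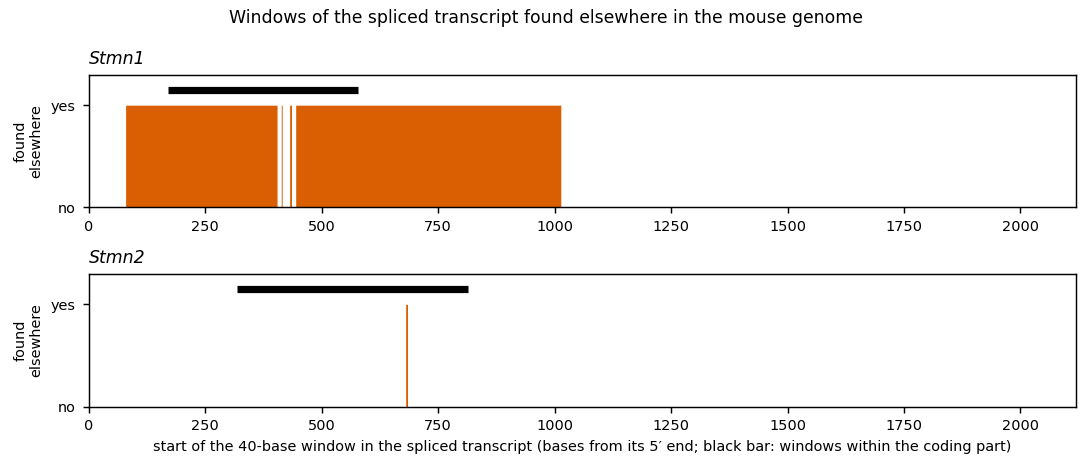
Windows of 40 bases of the spliced Stmn1 (top) and Stmn2 (bottom) transcripts that also occur elsewhere in the mouse genome (filled, yes; blank, no), by their start in bases from the 5′ end, with a black bar over the windows within the coding part. In Stmn1 374 of 408 coding windows are filled, and in Stmn2 4 of 498.

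Stmn1 encodes stathmin itself, the member found in dividing cells as well as neurons. Over all libraries of a population it had 0 UMIs for the ONL, 1 for the BCL, 2 for the GCL, 0 for TH+ and 2 for TH− cells. A count of 0 in the pooled 2272285 UMIs of the ONL allows a level of up to 1.32 CPM for countable reads, and in the 255496 UMIs of TH+ cells of up to 11.7 CPM, counting error only. Stmn1 did not pass the filter on low counts in either fit and no fold change is given for it. Of exon 1, 110 of 110 bases lie in windows found nowhere else, as do 775 of the 1240 bases of exon 5, and these limits hold only for reads that the aligner placed uniquely. Of the exon bases of Stmn1, 13.9% are shared with other annotated genes, the largest such share among the members.

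Dpysl3 encodes CRMP4, a CRMP of developing and regenerating axons, and lies on the minus strand of chromosome 18 (43454049 to 43571532). In the ONL it stood at 1253, 1309, 1335 and 1257 CPM in sections 1 to 4, a mean of 1289 ± 40.1 (SD, n = 4), and its coefficient of variation of 3.11% was the lowest of the members there. In the BCL it stood at 284, 350, 386 and 302 CPM, and in the GCL at 428, 430, 443 and 420 CPM. Each of the 4 ONL libraries was above each library of the other layers. The fitted difference from the BCL was 2.29 on the log2 scale (SE 0.12) and that from the GCL 1.74 (SE 0.10), the values that chose the families. The ONL and GCL values did not overlap for any of the 8 members that passed the filter on low counts, as for 54.8% of the 11324 genes tested, and Dpysl3 was higher in the ONL while the other 7 were lower. The ONL and BCL did not overlap for 5 members, where 33.2% of all genes did not, and of these Dpysl3 was higher in the ONL and 4 were lower. Since the members were chosen with these values in view, nothing is read from the counts.

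Rod markers are set beside Dpysl3 because rods make up most of the ONL. Rod markers in the BCL amounted to 24.9% of their ONL share and those in the GCL to 9.29%, while Dpysl3 in the BCL amounted to 25.6% of its ONL level and in the GCL to 33.4%. The part of carried-over rod RNA in the Dpysl3 counts of these layers was not tested. Of the exon bases of Dpysl3, 0.442% are shared with another annotated gene, which lies on the other strand.

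The 3 genes whose profile over the 12 layer libraries was most like that of Dpysl3 (Pearson's r of log2 CPM, prior count 2) were Wwc2 with r = 0.995, Dctn1 with r = 0.993 and Pdzd2 with r = 0.990. Dctn1, which encodes the largest subunit of the dynein activator dynactin, stood at 627 ± 6.89 CPM in the ONL, against 362 ± 40.5 in the BCL and 379 ± 15.5 in the GCL. Wwc2 stood at 207 ± 14.6, 72.4 ± 11.7 and 88.5 ± 5.72 CPM, and Pdzd2 at 611 ± 31.2, 265 ± 29.5 and 276 ± 9.95 CPM. In all 3, as in Dpysl3, the ONL mean was the highest and the BCL mean was below the GCL mean. This is no separate observation, since the genes were picked by that profile. The libraries share sections and layers, so r is a description.

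**Figure D2:**
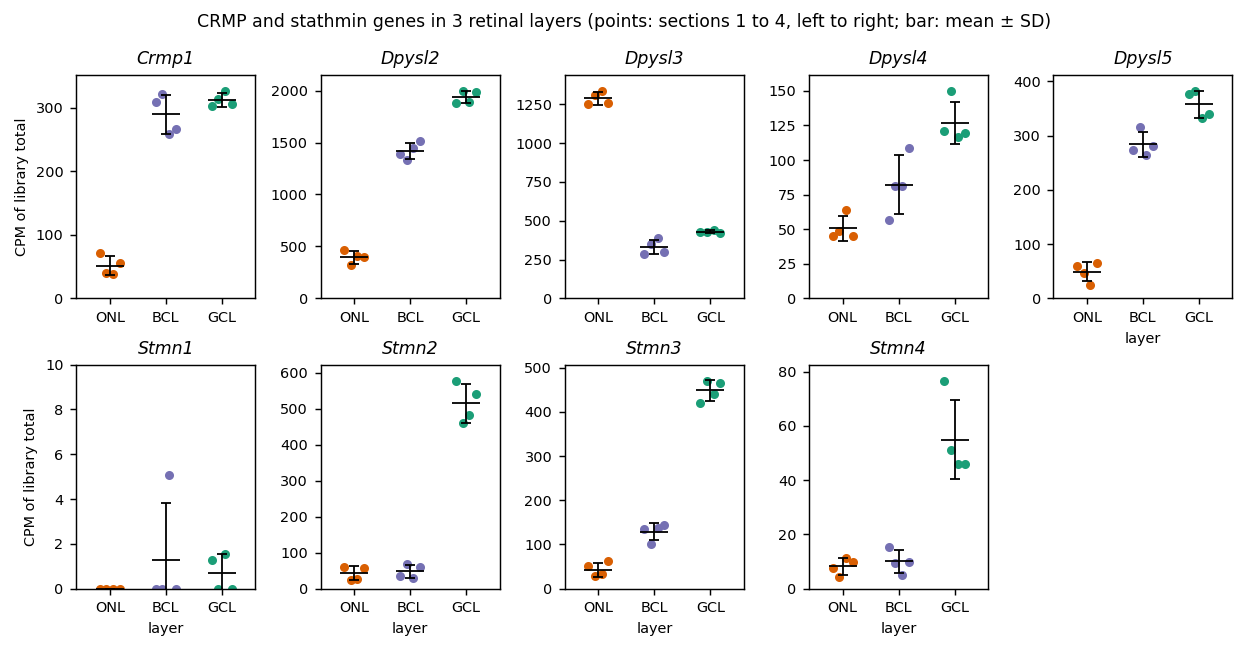
CPM of the 9 genes in the ONL, BCL and GCL, with 1 point per section (sections 1 to 4 from left to right in each layer) and the mean with its SD. Dpysl3 alone is highest in the ONL, at 1253 to 1335 CPM, and the stathmins Stmn2, Stmn3 and Stmn4 are highest in the GCL.

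Dpysl2 encodes CRMP2, the founding member and the most studied partner of tubulin (chr14:67040313-67148522, minus strand). It stood at 462, 317, 406 and 393 CPM in the ONL, at 1393, 1334, 1443 and 1513 CPM in the BCL and at 1878, 1995, 1894 and 1984 CPM in the GCL. The 3 layers did not overlap, and the ONL mean of 395 ± 59.8 CPM was 20.4% of the GCL mean. Beside it, ganglion cell markers in the ONL amounted to 7.94% and amacrine markers to 23.0% of their GCL share. Amacrine markers held 0.0337% ± 0.0104 in the ONL, and 0.411% ± 0.0811 in the TH− cells of the other sections. Bipolar markers held 0.0652% ± 0.0127 in the ONL against 0.657% ± 0.0368 in the BCL. Müller glia markers held 0.0955% ± 0.0294 and 0.756% ± 0.0363 in these layers. The part of RNA of inner retinal cells in the ONL counts was not tested.

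Crmp1 and Dpysl5, which encode CRMP1 and CRMP5, CRMPs that pair with CRMP2 in mixed tetramers, were the lowest CRMPs in the ONL relative to the inner layers. Crmp1 (chr5:37399284-37449481, plus strand) stood at 71.2, 40.1, 38.8 and 54.8 CPM in the ONL, at 309, 321, 259 and 267 CPM in the BCL and at 302, 313, 326 and 306 CPM in the GCL. Dpysl5 (chr5:30868908-30956719, plus strand) stood at 59.9, 47.0, 25.1 and 64.5 CPM in the ONL, at 273, 317, 264 and 282 CPM in the BCL and at 377, 382, 332 and 340 CPM in the GCL. The BCL and GCL overlapped for Crmp1 and did not for Dpysl5. The GCL mean was 6.08 times the ONL mean for Crmp1 and 7.28 times for Dpysl5.

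Dpysl4, which encodes CRMP3 (chr7:138665875-138682620, plus strand), was the lowest CRMP per kilobase in the BCL and GCL. It stood at 44.9, 48.4, 63.9 and 45.1 CPM in the ONL, at 56.7, 81.6, 81.3 and 109 CPM in the BCL and at 121, 150, 117 and 120 CPM in the GCL. The lowest BCL library was below the highest of the ONL, so these layers overlapped, and the fitted difference between them was −0.38 (SE 0.23).

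Stmn2, Stmn3 and Stmn4 encode the neuronal stathmins, which a lipid anchor holds on Golgi and vesicle membranes, and Stmn2 (SCG10, chr3:8574151-8626667, plus strand) is the member tied to axon regrowth. Stmn2 stood at 61.2, 23.5, 27.4 and 58.0 CPM in the ONL, at 36.1, 67.2, 30.5 and 59.3 CPM in the BCL and at 576, 459, 481 and 541 CPM in the GCL. Its ONL and BCL libraries overlapped, with a fitted difference of 0.13 (SE 0.32) that turned to −0.37 without section 1 and to −0.21 without library scaling, and the GCL stood far above both. The ONL libraries of sections 1 and 4, with the higher Stmn2, also held more ganglion cell marker UMIs, 0.0743% and 0.0722% against 0.0373% and 0.0441% in sections 2 and 3. This was not particular to ganglion cells or to Stmn2. Amacrine, bipolar and Müller glia markers were likewise higher in both of these ONL libraries, and horizontal cell markers were not. Stmn3, Crmp1 and Dpysl5 were higher there too. Dpysl2 and Stmn4 did not separate the sections in this way, and Dpysl3 and Dpysl4 were lower in sections 1 and 4. The part of RNA of inner retinal cells in the Stmn2 counts was not tested.

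Stmn3 (SCLIP, chr2:180948247-180956293, minus strand) differed from Stmn2 in the BCL. It stood at 49.9, 27.7, 32.0 and 61.2 CPM in the ONL, at 134, 101, 137 and 143 CPM in the BCL and at 419, 469, 441 and 466 CPM in the GCL, with no overlap between layers. Stmn4 (RB3, chr14:66581745-66599131, plus strand) was counted at 3 to 6 UMIs a library in the ONL and 1 to 3 in the BCL, against 27 to 60 in the GCL. Its level was 8.18 ± 3.13 CPM in the ONL, against 10.01 ± 4.26 in the BCL and 54.9 ± 14.5 in the GCL, and the ONL and BCL libraries overlapped.

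The 3 genes most like Stmn2 over the 12 layer libraries were Necab2 with r = 0.989, Sv2c with r = 0.989 and Nefl with r = 0.987. Nefl, the neurofilament light chain and one of the ganglion cell markers used here, stood at 143 ± 66.3 CPM in the ONL, against 133 ± 53.5 in the BCL and 1622 ± 116 in the GCL. Necab2, a calcium-binding protein, stood at 17.0 ± 7.23, 14.8 ± 8.80 and 208 ± 27.6 CPM and Sv2c, a synaptic vesicle protein, at 39.4 ± 16.3, 34.9 ± 6.55 and 408 ± 68.9 CPM. In all 3, as in Stmn2, the ONL and BCL means lay within their SDs of each other. Likewise, this follows from picking the genes by their profile and is no separate observation.

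The comparison of BCL with GCL asks how the families differ between the bipolar and Müller cell layer and the ganglion cell layer, and the choice of the members did not use it. Of the 9 members, 8 passed the low-count filter and 7 were lower in the BCL (edgeR quasi-likelihood test, adjusted p after Benjamini-Hochberg over every gene tested), where 20.4% of the 11324 genes tested were called in that direction, and 0 were called higher in the BCL, where 16.1% were. The same 7 had all 4 BCL values below all 4 GCL values, as 17.4% of all genes did. The median log2 fold change of the 8 members was −0.70, beside −0.02 over all genes tested.

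The 3 stathmins tested had the largest fold changes of the members between these layers. Stmn2 was 11.8 times lower in the BCL (95% interval 8.84 to 15.8, adjusted p = 1.44e-20 by edgeR). Stmn4 was 6.12 times lower (3.48 to 10.8, adjusted p = 4.47e-07), on 8 UMIs in all in the BCL. Stmn3 was 3.91 times lower (3.16 to 4.85, adjusted p = 8.71e-16). Ganglion cell markers in the BCL amounted to 7.91% and amacrine markers to 45.3% of their GCL share, Stmn2 in the BCL to 9.39% of its GCL level, Stmn4 to 18.2% and Stmn3 to 28.7%. The part of RNA of ganglion or amacrine cells in these differences was not tested.

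The fold changes of the CRMPs were below 2. Dpysl4 was 1.73 times lower in the BCL (95% interval 1.32 to 2.27, adjusted p = 9.10e-04 by edgeR), Dpysl2 1.53 times (1.32 to 1.78, adjusted p = 5.10e-06), Dpysl3 1.46 times (1.22 to 1.75, adjusted p = 4.89e-04) and Dpysl5 1.41 times (1.17 to 1.71, adjusted p = 2.20e-03). Crmp1 did not pass the test, with a log2 fold change of −0.27 (95% interval −0.54 to −0.01, adjusted p = 0.105), and in 2 of 4 sections its CPM was higher in the BCL. Without the low-count filter Crmp1 was called as well (adjusted p = 0.0373), in a fit whose scaling moved the median of all genes by −0.11 on the log2 scale; over all alternatives its adjusted p ran from 0.0373 to 0.587. Without library scaling the CRMP differences shrank, to −0.38 for Dpysl3 and −0.33 for Dpysl5 (adjusted p = 0.0131 and 0.0464), and again 7 members were called. Over all genes, the calls that were higher in the BCL made up 44.1% with and 55.7% without that scaling.

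The comparison of TH+ with TH− cells asks whether the families differ between dopaminergic and other amacrine cells, and the choice of the members did not use it either. Of the 8 members tested, 0 were called by edgeR, where 50 of 6021 genes (0.83%) were called in either direction. With the section as a block 0 members were called too, where 96 genes were higher and 52 lower in TH+ cells. DESeq2 also called 0, and 2 members had an unadjusted p under 0.05, where 8.85% of all genes did. At these depths a member had 0 to 123 UMIs in a TH+ library. The paper barcoded only a few TH+ cells in each section, against many more TH− cells. The biological coefficient of variation was put at 16.1% by edgeR (9.17% in the layers), so the intervals are wide. Müller glia markers, with 8 of 8 genes counted in both groups, held 0.313% to 0.456% of the UMIs of TH+ and 0.430% to 0.695% of those of TH− libraries, and their part in the differences below was not tested.

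Among the CRMPs, Dpysl2 stood at 1368, 1407, 1364, 1384 and 1649 CPM in TH+ cells and at 1696, 1666, 1816, 1727 and 1790 CPM in TH− cells. Every TH+ library was below every TH− library, as in 1.35% of all genes, but the difference was small, −0.29 on the log2 scale (95% interval −0.59 to 0.01, adjusted p = 0.580 by edgeR). Dpysl4 stood at 123, 103, 94.1, 238 and 165 CPM in TH+ and 204, 174, 253, 294 and 345 CPM in TH− cells, lower in TH+ in 5 of 5 sections. Its difference of −0.87 (95% interval −1.44 to −0.30) had an unadjusted p of 0.00327 and an adjusted p of 0.168 in edgeR's fit, and the adjusted p ran from 0.0584 to 0.543 over the alternatives.

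Dpysl3 went the other way in every section. It stood at 388, 252, 353, 432 and 297 CPM in TH+ cells and 322, 214, 201, 270 and 247 CPM in TH− cells, so that it was higher in TH+ cells in 5 of 5 sections while the groups overlapped. Its difference of 0.42 (95% interval −0.02 to 0.86) did not pass the test, with an adjusted p of 0.599 by edgeR. Rod markers, which like Dpysl3 were highest in the ONL, held 2.01% ± 0.616 (n = 5) of the UMIs of TH+ and 1.14% ± 0.373 of those of TH− cells, and their part in the Dpysl3 counts was not tested. Crmp1, at 281 ± 100.2 CPM in TH+ and 291 ± 33.7 in TH− cells, and Dpysl5, at 141 ± 88.6 and 173 ± 86.4 CPM, overlapped between the groups and their intervals included 0 (−0.58 to 0.35 and −0.96 to 0.40).

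Among the stathmins, Stmn2 stood at 143, 149, 259, 43.2 and 363 CPM in TH+ cells and at 125, 75.2, 44.6, 105 and 91.6 CPM in TH− cells, higher in TH+ in 4 of 5 sections. Its difference of 0.96 (95% interval 0.28 to 1.64) had an unadjusted p of 0.00681 and an adjusted p of 0.261 in edgeR's fit, on 44 UMIs in all in TH+ cells. With the section as a block the adjusted p was 0.0602, and over all alternatives it ran from 0.0602 to 0.752. Stmn3 stood at 140 ± 91.7 CPM in TH+ and 85.9 ± 24.1 in TH− cells, with an interval of −0.12 to 1.29. Stmn4 had 0 to 3 UMIs in a TH+ library, and its interval of −1.59 to 0.89 included 0.

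**Figure D3:**
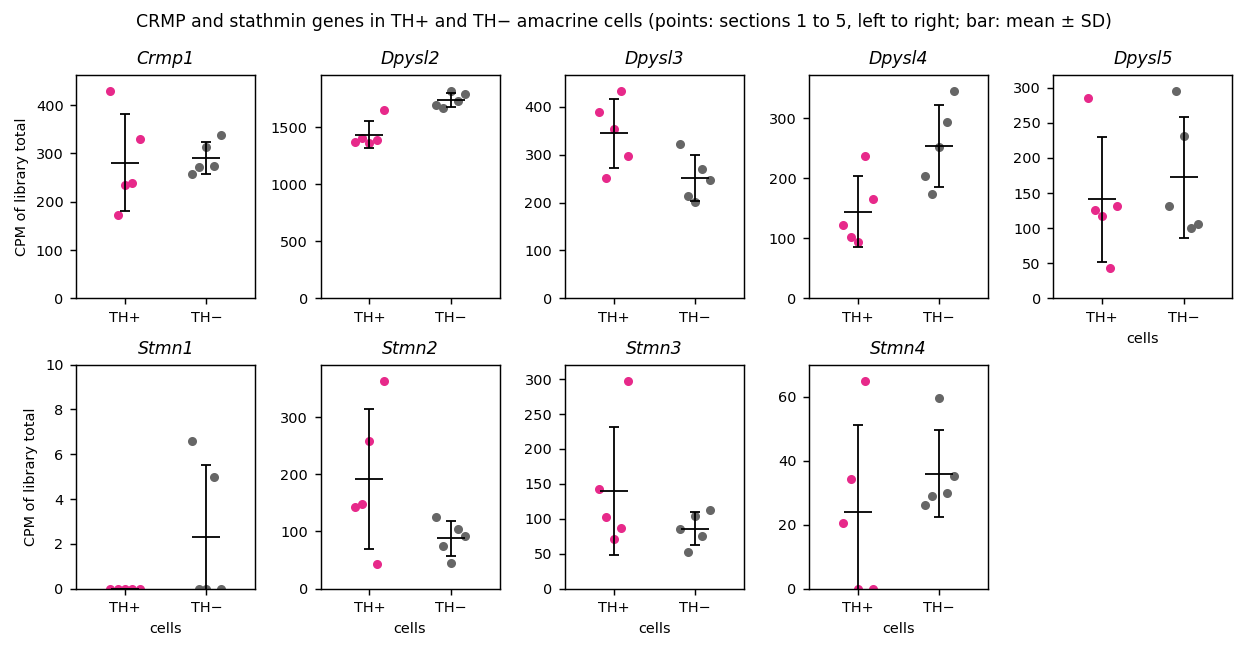
CPM of the 9 genes in TH+ and TH− amacrine cells, with 1 point per section (sections 1 to 5 from left to right) and the mean with its SD. Only Dpysl2 separates the groups, with TH+ libraries at 1364 to 1649 CPM and TH− libraries at 1666 to 1816 CPM.

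**Figure D4:**
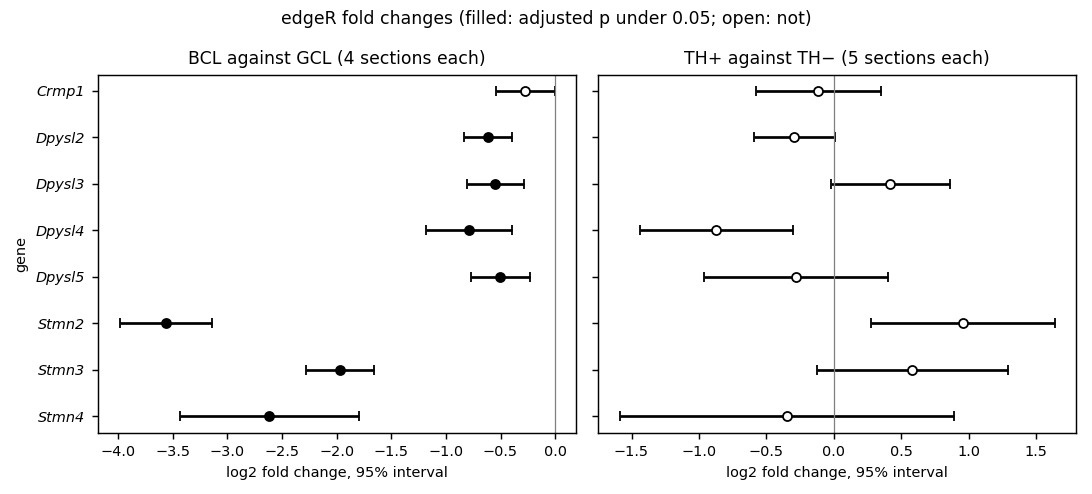
Log2 fold changes from edgeR with 95% intervals for the 8 members that passed the low-count filter, BCL against GCL on the left and TH+ against TH− on the right; filled points have an adjusted p under 0.05. On the left 7 of 8 points are filled and all lie below 0, and on the right 0 are filled.

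To set different genes side by side, CPM was divided by exon length (CPM per kilobase), with the gene lengths in the deposited mixed-culture tables. In the GCL the order was Dpysl2 at 429 ± 13.4, Stmn3 at 395 ± 20.7, Stmn2 at 91.8 ± 9.62 and Dpysl3 at 65.1 ± 1.42, with no overlap between neighbours over the 4 sections. Dpysl5 at 48.5 ± 3.46 and Crmp1 at 44.2 ± 1.499 followed and overlapped each other, as did Stmn4 at 28.7 ± 7.59 and Dpysl4 at 21.2 ± 2.59. The place of Crmp1 depended on the length used, 7046 bases in the deposited tables and 2938 in its canonical spliced transcript. With canonical lengths Crmp1 stood at 106 ± 3.59 in the GCL, above Dpysl3 at 79.5 ± 1.73 and Dpysl5 at 68.9 ± 4.92, with no overlap between them, and Stmn2 stood at 240 ± 25.2. In the BCL Dpysl2 led at 314 ± 16.8, ahead of Stmn3 at 113 ± 16.8, and Stmn2 stood in the seventh place at 8.62 ± 3.17.

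The ONL had another order. Dpysl3 led at 195 ± 6.07 CPM per kilobase, followed by Dpysl2 at 87.3 ± 13.2 and Stmn3 at 37.6 ± 13.8, with no overlap between these neighbours. Dpysl4, Stmn2, Crmp1 and Dpysl5 stood between 6.66 and 8.46 and overlapped one another in sequence. With canonical lengths Dpysl3 and Dpysl2 again led the ONL without overlap, at 238 ± 7.42 and 87.3 ± 13.2, and Stmn3 overlapped the next gene, Stmn2. In both kinds of amacrine cell Dpysl2 led and did not overlap the second gene, Stmn3, at 317 ± 26.8 against 123 ± 80.8 in TH+ cells and 385 ± 13.9 against 75.6 ± 21.2 in TH− cells. With canonical lengths Crmp1 was second in TH− cells, at 99.0 ± 11.5, and overlapped Stmn3.

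As a share of the CRMP family per kilobase, Dpysl2 made up 70.5% ± 0.818 in the GCL, 68.7% ± 2.20 in the BCL, 70.3% ± 5.12 in TH+ and 72.6% ± 0.663 in TH− cells, and 28.6% ± 3.23 in the ONL. Dpysl3 made up 64.1% ± 3.73 in the ONL, 10.9% ± 1.49 in the BCL, 10.7% ± 0.417 in the GCL, 11.5% ± 2.36 in TH+ and 7.19% ± 1.53 in TH− cells. Outside the ONL, then, Dpysl2 held the larger share in every library, and in the ONL Dpysl3 did. With canonical lengths Crmp1 made up 14.8% of the CRMPs in the GCL, above Dpysl3 at 11.1%, and Dpysl3 made up 65.1% in the ONL. The summed CRMP level was 1834 ± 58.4 CPM in the ONL, against 2406 ± 66.4 in the BCL and 3164 ± 76.4 in the GCL, and without Dpysl3 the ONL sum was 546 ± 76.3 CPM.

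As a share of the stathmin family per kilobase, Stmn3 made up 76.0% ± 3.17 in the ONL, against 88.4% ± 3.29 in the BCL and 76.6% ± 3.14 in the GCL, and Stmn2 14.9% ± 2.62, 6.95% ± 3.26 and 17.8% ± 1.83. The deposited length of Stmn2, 5602 bases, covers the exons of all its transcripts, while its canonical spliced transcript has 2139 bases. With canonical lengths Stmn2 made up 35.4% in the GCL, so its share depends on the length used, and Stmn3 remained the larger share in each population. The summed stathmin level was 93.4 ± 35.9 CPM in the ONL, against 188 ± 16.6 in the BCL and 1019 ± 52.0 in the GCL.

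**Figure D5:**
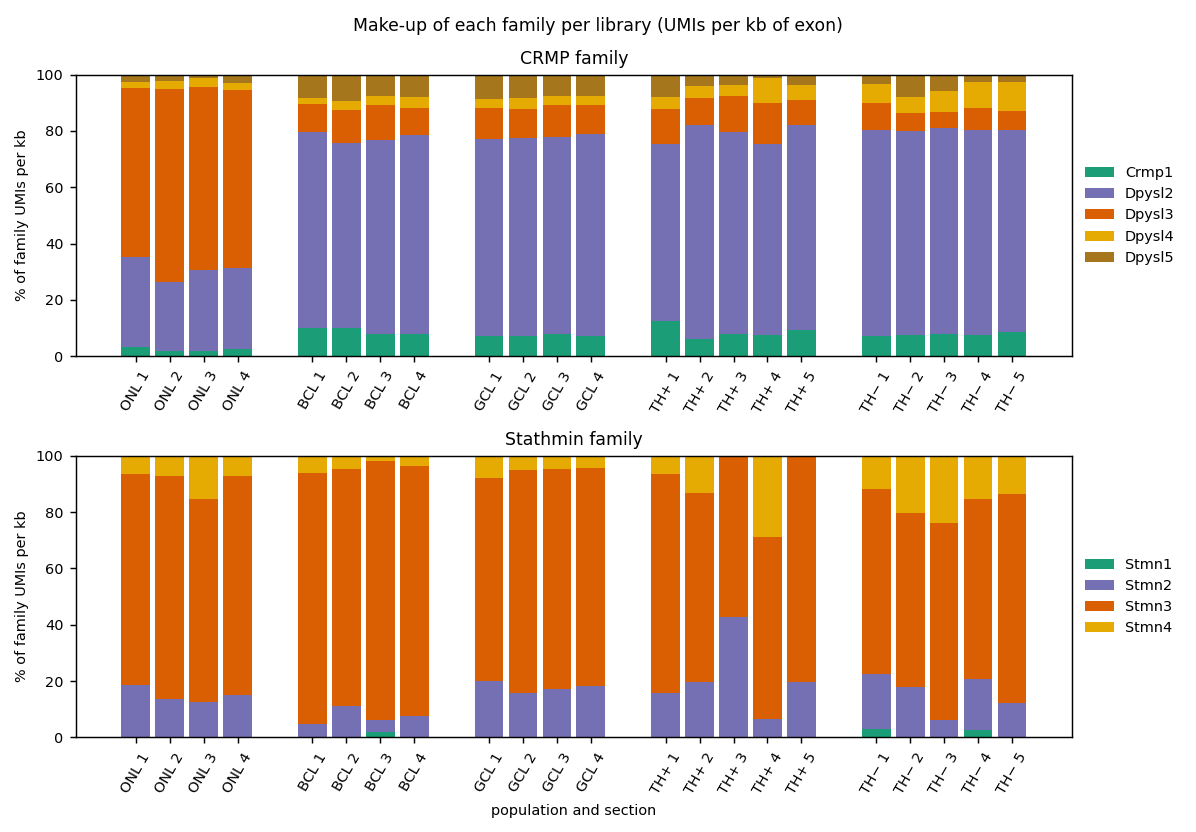
Share of each member in its family per library, in percent of the UMIs per kilobase of exon, for the CRMPs (top) and the stathmins (bottom), with 1 bar per section. Dpysl3 takes 59.7% to 68.7% of the CRMPs in the ONL libraries and at most 14.5% in any other library.

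Partners of the 2 families were read from lists written from general knowledge. Of the tubulins, the substrate of both families, 11 of 13 passed the filter, and 8 were lower and 0 higher in the BCL than in the GCL by edgeR (20.4% and 16.1% of all genes). Tubb4a stood at 1022 ± 35.8 CPM in the GCL, 523 ± 48.0 in the BCL and 107 ± 44.1 in the ONL, and Tuba1a at 491 ± 32.5, 285 ± 16.5 and 147 ± 28.1. Tubb5 stood at 648 ± 27.5, 472 ± 78.7 and 512 ± 36.5 CPM, with a log2 difference of −0.19 (SE 0.11) between ONL and GCL that did not pass the test (adjusted p = 0.121 by edgeR). This call depended on the scaling: Tubb5 was called lower in the ONL with DESeq2-style size factors (−0.25, adjusted p = 0.0375), by DESeq2 (adjusted p = 0.0370), with mitochondrial genes left out (−0.28, adjusted p = 0.0226) and without library scaling (−0.35, adjusted p = 0.00273), and over all alternatives its adjusted p ran from 0.00273 to 0.268. The tubulins called lower in the ONL than in the GCL numbered 8 by edgeR, where 32.2% of all genes were called in that direction. With edgeR's default filter, which left 7956 genes, they numbered 6, where 36.0% of those genes were called. They numbered 11 with those size factors, with mitochondrial genes left out and without library scaling, where 33.7%, 34.2% and 36.2% of all genes were called.

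Of the microtubule-associated proteins, all 18 were tested, and 8 were lower and 3 higher in the BCL than in the GCL (5 lower without library scaling), where 20.4% and 16.1% of all genes were called with and 16.5% were lower without that scaling. The 3 higher ones, named after their values were seen, were Map7, Map4 and Camsap2, with log2 fold changes of 1.91, 0.37 and 0.48, and of these Map4 and Camsap2 were not called without the low-count filter (adjusted p = 0.140 and 0.0578). Map1b, a microtubule stabiliser of growing axons, stood at 5410 ± 474 CPM in the ONL, against 2201 ± 208 in the BCL and 5553 ± 196 in the GCL. It was higher in the ONL than in the BCL (log2 fold change 1.63, SE 0.11, adjusted p = 7.39e-18 by edgeR) and did not pass the test between ONL and GCL (0.12, SE 0.11, adjusted p = 0.318; −0.04 without library scaling). Map1a, its relative of mature axons, stood at 319 ± 111 CPM in the ONL against 2808 ± 111 in the GCL, and Map4 was highest in the BCL at 2487 ± 155 CPM. Between ONL and GCL, edgeR called 6 genes of the list as higher in the first and 11 as higher in the second, where 29.3% and 32.2% of all genes were called.

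The list of semaphorin 3A signalling and CRMP kinases also holds the ligand Sema3a, kinase activators and Mical genes. Of its genes, 17 of 19 were tested. In the BCL 11 were lower and 3 higher than in the GCL, where 20.4% and 16.1% of all genes were called. The 3 higher ones, named after their values were seen, were Plxna4 (2.21), Rock1 (1.13) and Dyrk2 (0.78 on the log2 scale), and without section 2 Rock1 was not called (0.93, adjusted p = 0.0915). In the ONL, Cdk5r2, an activator of the CRMP kinase CDK5, stood at 954 ± 87.0 CPM against 288 ± 68.9 in the BCL and 373 ± 17.4 in the GCL. Plxna2, a plexin co-receptor for semaphorins, stood at 692 ± 33.9 CPM in the ONL against 190 ± 34.1 and 288 ± 27.1. Both were higher in the ONL than in the GCL, by 1.51 (SE 0.11, adjusted p = 2.31e-17 by edgeR) and 1.43 (SE 0.11, adjusted p = 6.43e-17) on the log2 scale. They were among 4 genes of the list called in that direction, and 11 were called in the other, where 29.3% and 32.2% of all genes were. Gsk3b, the kinase GSK3β, stood at 599 ± 10.1, 598 ± 52.5 and 625 ± 22.7 CPM in ONL, BCL and GCL.

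Of the 8 CRMP cargoes and binding partners, 6 were lower in the BCL than in the GCL and 1, Cyfip1, named after its values were seen, was higher (1.35), where 20.4% and 16.1% of all genes were called. Kif5a, a kinesin heavy chain, stood at 1106 ± 59.5 CPM in the GCL, 195 ± 41.0 in the BCL and 107 ± 39.9 in the ONL. Cyfip2 and the kinesin light chain Klc1 also had their highest mean in the GCL among the layers, at 1087 ± 50.2 and 497 ± 32.1 CPM. Of the stathmin kinases, 8 of 11 were tested, and 6 were lower and 0 higher in the BCL, beside the same shares of all genes. Mapk10 (JNK3), a kinase of Stmn2, stood at 397 ± 24.9 CPM in the GCL, 130 ± 26.3 in the BCL and 36.3 ± 15.1 in the ONL. The protein kinase A subunits Prkaca and Prkacb stood at 340 ± 23.1 and 284 ± 15.7 CPM in the GCL against 141 ± 19.2 and 85.1 ± 9.51 in the ONL.

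Between TH+ and TH− cells, 1 of the 56 genes of the 5 lists that were tested was called (1.79%), where 0.83% of all genes were. It was Plxna4, a plexin that takes part in semaphorin 3A signalling, named after its values were seen, with a log2 fold change of 1.49 (SE 0.27, adjusted p = 2.93e-04 by edgeR), and without section 2 it was not called (1.02, adjusted p = 0.0877). Map1b stood at 4396 ± 456 CPM in TH+ and 3011 ± 558 in TH− cells, a log2 difference of 0.53 (SE 0.15) with an adjusted p of 0.0906 by edgeR. With the section as a block it was called (adjusted p = 1.52e-08), and over the other alternatives its adjusted p ran from 0.0328 to 0.618.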

How the data were processed

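The members, gene lists and comparisons were chosen with earlier results of these data known. The deposited counts are whole numbers of distinct UMIs per gene and library without normalization. The authors extracted UMIs and barcodes with UMI-tools 1.1.1, mapped cDNA reads with STAR 2.7.9a to mm39 and GENCODE gene models, and dropped multimapping reads. Exons were counted by featureCounts at its default settings, which ignore strand, and UMIs were deduplicated per gene (versions per the submitters' processing notes). A read in a stretch where the authors' gene models hold exons of 2 genes cannot be assigned by strand. These settings leave such a read uncounted. Over exons of only 1 gene, antisense reads cannot be told apart from its own. Exons of other annotated genes, on the other strand except for 1 miRNA gene at Stmn1, overlap 13.9% of Stmn1, 8.57% of Dpysl2, 6.53% of Crmp1, 3.19% of Dpysl5 and 2.47% of Stmn3.

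CPM was taken from column totals. Differences were tested by quasi-likelihood in edgeR 4.0.16 (R 4.3.3) after TMM scaling and a low-count filter (filterByExpr, min.count 3, min.total.count 10), in 1 fit of the 12 layer libraries (11324 genes) and 1 of the 10 amacrine libraries (6021 genes), with Benjamini-Hochberg adjustment at 0.05. SEs of log2 fold changes were derived from the F statistic. On simulated counts, in which 50 well-counted genes were changed at each fold, the fit called 32% of the 1.5-fold, 60% of the 2-fold and 94% of the 4-fold changes for BCL against GCL (11233 genes) and 22%, 52% and 98% for TH+ against TH− (6102 genes), with 4.70% and 4.93% of the calls false. The study's methods name no section block, so a block served as an alternative. Sections pair the libraries, since 1 sample of the labels holds all libraries of a section. Residual correlations of same-section libraries ran from 0.0116 to 0.0493 over 12 layer pairs and from 0.0287 to 0.257 over 5 amacrine pairs. The alternatives were DESeq2 1.42.0, its size factors, other filters, no mitochondrial genes and each section left out, and, chosen after seeing the data, no TMM scaling and canonical transcript lengths. Windows and coordinates came from GRCm39 with a later GENCODE release than that of the authors.

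Besides all 9 members, the genes named are the 3 most correlated with Dpysl3 and with Stmn2 over the layers, the 3 with the highest mean CPM of each list and those named for a count. Limits for a count of 0 take 3 UMIs over a population and cover counting error only, and the 95% intervals of the fits cover the spread between sections.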

Additional observations from a re-analysis of the deposited data

Results flagged for a closer look

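Among the 40 combinations of member and population that could be examined, 4 had a library that stood apart by Dixon's test, which flags about 1 in 20 groups by chance. Dpysl4 in the GCL stood at 149.9 CPM in section 2 against 117 to 121 in the others. Stmn4 in the GCL stood at 76.4 CPM in section 1 against 46.1 to 51.0. Dpysl2 in TH+ cells stood at 1649 CPM in section 5, the shallowest library, against 1364 to 1407. Stmn4 in TH− cells stood at 59.5 CPM in section 3 against 26.3 to 35.2, a matter of 8 UMIs against 4 to 6.

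Signals of both families also appeared in the mixed culture of human HEK cells (HEK293T in the labels, HEK293 in the study's methods) and mouse 3T3 cells, which enters no comparison here. In 3T3 fibroblasts Dpysl2 stood at 372 ± 44.0 CPM (SD, n = 3 wells) and Dpysl3 at 362 ± 11.0 CPM, while Crmp1, Dpysl4, Dpysl5 and all 4 stathmins had 0 UMIs in 540880, which allows a level of up to 5.55 CPM each, for Stmn1 of countable reads only. In HEK cells DPYSL5 stood at 355 ± 52.3 CPM, STMN1 at 167 ± 39.6 CPM and DPYSL2 at 81.3 ± 29.1 CPM, while DPYSL3, STMN2 and STMN4 had 0 UMIs in 238708, which allows up to 12.6 CPM. A deeper run of well 2 counted 2 UMIs of DPYSL3 in 138882 of HEK cells (14.4 CPM) and 1 of Crmp1 in 296198 of 3T3 cells (3.38 CPM), and STMN2 and STMN4 were again at 0.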

How the results depend on the processing

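The count of members called lower in the BCL was 7 under the main settings and 7 or 8 under the alternatives, and that of members called between TH+ and TH− cells was 0 under all of them. With the section as replicate block, 7 members were called in the BCL against GCL and 0 in TH+ against TH−, and the block changed no call of a member. Signs of member values turned where these had not passed a test or were not tested. Leaving out 1 section at a time, the log2 fold change of the ONL against the BCL ran from −0.37 (without section 1) to 0.58 for Stmn2 and from −0.44 to 0.20 (without section 1; 0.16 without section 2) for Stmn4. In TH+ against TH− cells it ran from −0.41 to 0.065 (without section 2) for Crmp1, from −0.79 to 0.093 (without section 2) for Dpysl5 and from −0.94 to 0.12 (without section 3) for Stmn4. Without TMM scaling Stmn2 was at −0.21 in the ONL against the BCL. Crmp1 was called in the BCL against the GCL without the low-count filter; the cause was not tested. Of the microtubule-associated proteins, 5 in place of 8 were called lower in the BCL than in the GCL without TMM scaling. Of all genes, 16.5% in place of 20.4% were. Without the low-count filter 1 in place of 3 was called higher in the BCL, where 1492 of 23934 genes were. Of the stathmin kinases, 1 in place of 0 was called higher in the BCL than in the GCL without TMM scaling and without section 4. Of all genes, 2353 of 11324 and 1486 of 12464 were called in that direction. As shares of raw UMIs, Stmn2 made up 50.4% and Stmn3 44.2% of the stathmins in the GCL, and Dpysl3 70.3% of the CRMPs in the ONL. The 30317 UMIs of the shallowest TH+ library limit what can be seen in rare members.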
